A study of Mus musculus with 4 samples.

Results

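The genes described are 9 that encode signal adaptors, ubiquitin ligases and a kinase, grouped here for signalling under OX40 and other TNF receptors. They are the TRAF adaptors Traf1, Traf2, Traf3, Traf5 and Traf6, the inhibitor-of-apoptosis (IAP) ubiquitin ligases Birc2, Birc3 and Xiap, and Map3k14, which encodes the NF-kB-inducing kinase (NIK). They were chosen by name for this role, though with earlier results of these data known. All 9 were found among the 35275 genes of the deposited table. All 9 also lay among the 11625 genes tested, which had a mean of at least 1 RPKM over the libraries (RPKM counts reads relative to transcript length and to the size of the library). The cells were mouse double-negative regulatory T cells (DNT), converted from naive CD4 T cells in culture and sorted as positive for CD3 and TCRαβ and free of NK markers, CD4 and CD8. Wild-type cells of strain C57BL/6 gave 2 libraries, and cells of OX40-knockout mice gave the other 2, whose strain label is also C57BL/6. The labels give no age, no further allele or agent, and neither the deleted part of the gene nor whether each library had its own animal or culture. The p-values therefore rest on the spread among these libraries alone, and that spread may be technical.

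OX40 has no enzyme activity of its own. When its ligand clusters it, its tail recruits TRAF adaptors, which bring ubiquitin ligases to the membrane and lead on to the IKK complex, the JNK kinases and NF-kB. In resting cells TRAF3 holds NIK against a complex of TRAF2 with the cIAP ligases, which marks NIK for destruction, and engagement of receptors such as OX40 can release it to drive the alternative NF-kB pathway. In T cells the same adaptors also serve 4-1BB, GITR, CD27, CD30 and TNF receptor 2.

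The library totals behind the values ranged from 22220888 to 24395743 reads. In bulk RNA, fewer cells of a type and less RNA per cell cannot be told apart. Cd3e, part of the T cell receptor complex, had 248 to 332 RPKM, while Cd4 read 10.1 RPKM in OX40-knockout 1 and from 0.82 to 2.06 RPKM elsewhere. Transcripts of CD8 were read in every library. Cd8a was at 10.5 and 10.4 (wild-type) and 16.6 and 9.03 RPKM (knockout), and Cd8b1 at 3.37 and 2.49 against 4.44 and 2.00 RPKM. The 6 NK cell markers read here, a list not taken from the sort, summed to 550 and 939 (wild-type) and 302 and 1076 RPKM (knockout). None of the 6 was at 0. The 3 matched γδ T cell markers, all gamma constant segments (Tcrg-C1, Tcrg-C2 and Tcrg-C4), summed to between 403 and 422 RPKM. Trdc, of the delta chain, was not matched. Of the αβ constant segments, Trac lay between 159 and 279, Trbc1 between 208 and 341 and Trbc2 between 482 and 646 RPKM. The 6 B and plasma cell markers summed to between 2.62 and 4.85 RPKM, with Ms4a1 and Pax5 at 0 in every library. The 10 dendritic and myeloid markers summed to between 90.7 and 191 RPKM, most of it H2-Ab1, and none was at 0 in every library. OX40-knockout 1 stood apart from the rest. It lay at 34.2 on the first principal component (71.0% of the variance), where the others lay between -18.1 and -0.06, and it was above or below all 3 other libraries in 79.5% of the genes tested. Tnfrsf4, which encodes OX40, was at 18.2 and 12.3 (wild-type) and 12.1 and 9.38 RPKM (knockout). Such a value says little where the removed part of a gene is unknown, so the groups keep the names of their labels. Values are given with replicate 1 before replicate 2 throughout.

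The promoters shown are those of the most abundant pair, Traf1 and Birc3, and of the pair for which OX40-knockout 1 stood farthest from the other libraries, Traf3 and Xiap. They are the 250 bases before the start of transcription, 5′ to 3′, from RefSeq on GRCm38.p6, where all 9 genes had an entry and 12 start sites were listed. The positions are chr2:34961773-34962022 (minus strand) for Traf1, chr9:7873171-7873420 (minus strand) for Birc3, chr12:111166120-111166369 (plus strand) for Traf3 and chrX:42068148-42068397 (plus strand) for Xiap, the last being 1 of 3 listed starts. Capitals mark matches, on either strand, to GGGNNNNNCC, the outer frame of the site that NF-kB dimers bind.

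Traf1: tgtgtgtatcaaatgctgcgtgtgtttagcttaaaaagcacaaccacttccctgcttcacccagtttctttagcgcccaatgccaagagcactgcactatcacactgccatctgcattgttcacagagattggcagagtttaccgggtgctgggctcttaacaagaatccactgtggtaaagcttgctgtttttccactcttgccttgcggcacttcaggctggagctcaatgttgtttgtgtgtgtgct
Birc3: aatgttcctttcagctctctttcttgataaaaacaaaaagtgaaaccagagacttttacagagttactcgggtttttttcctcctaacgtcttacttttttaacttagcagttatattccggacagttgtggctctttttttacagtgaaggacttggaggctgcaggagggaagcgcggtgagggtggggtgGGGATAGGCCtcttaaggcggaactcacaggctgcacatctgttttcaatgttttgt
Traf3: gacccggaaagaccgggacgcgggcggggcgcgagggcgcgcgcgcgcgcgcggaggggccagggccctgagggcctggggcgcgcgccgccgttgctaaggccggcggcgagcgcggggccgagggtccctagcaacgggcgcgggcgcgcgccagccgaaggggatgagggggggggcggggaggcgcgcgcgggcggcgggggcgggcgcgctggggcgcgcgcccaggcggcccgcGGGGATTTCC
Xiap: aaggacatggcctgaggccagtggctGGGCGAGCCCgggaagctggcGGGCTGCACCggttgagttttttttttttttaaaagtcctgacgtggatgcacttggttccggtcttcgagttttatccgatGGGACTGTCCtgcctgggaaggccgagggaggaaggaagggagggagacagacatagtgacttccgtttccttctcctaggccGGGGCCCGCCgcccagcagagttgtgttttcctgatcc

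The Traf3 window was 85.2% G and C, that of Xiap 57.6%, that of Traf1 48.0% and that of Birc3 43.6%, against a median of 52.4% over all 32851 promoters listed. GGGNNNNNCC matched in 45.8% of all promoters of this length and at 7 of the 12 listed starts, with none at those of Traf1 and Birc2. The Xiap window shown was the only listed Xiap start with a match, and the other Xiap starts had 0. The stricter kB consensus, which lies within that frame, matched in 3.9% of all promoters and, among these genes, in Traf3 only. That match, GGGGATTTCC, took up bases 10 to 1 before the listed start. A match is a description of the letters in this window and shows no binding.

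RPKM is per length, so levels of different genes can be set side by side as far as the authors' lengths hold. The smallest length that fits a gene's values equals an annotated transcript for Traf5 only. For the other 8 neither that length nor a multiple of it matches one (for Birc3 it is 1198 bases, with a longest transcript of 2909), so the order below rests on lengths that are not known. Traf1 was the most abundant, at 92.7 ± 4.84 RPKM (mean ± SD over all 4 libraries), followed by Birc3 at 66.3 ± 2.49 and Birc2 at 38.6 ± 1.60 RPKM. Traf6 stood at 31.8 ± 2.86 and Xiap at 27.9 ± 4.67 RPKM. Traf2, Map3k14 and Traf3 formed a lower tier, at 14.5 ± 0.419, 14.1 ± 1.87 and 12.4 ± 2.01 RPKM, and Traf5 was lowest at 4.50 ± 0.456 RPKM. The steps from Traf1 to Birc3, from Birc3 to Birc2, from Birc2 to Traf6, from Xiap to Traf2 and from Traf3 to Traf5 separated ranges that did not overlap. Neighbours within the pair of Traf6 and Xiap, and within the tier of Traf2, Map3k14 and Traf3, overlapped in their ranges. Among all genes tested Traf1 lay at the percentile 89.1 of mean level and Traf5 at 21.7. The median level of the 9 was 27.9 RPKM, against 15.8 RPKM over all genes tested.

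**Figure D1:**
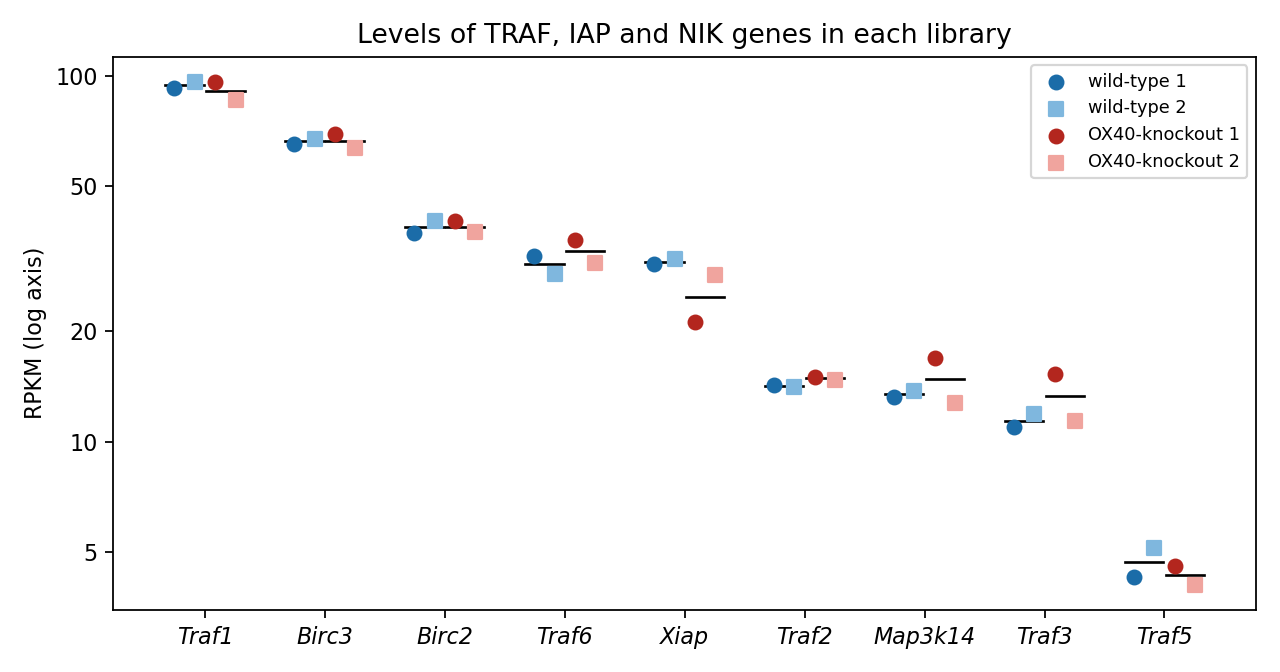
RPKM of each gene on a log axis, 1 point per library (circles for replicate 1, squares for replicate 2) and black bars for the group means (n = 2), ordered by mean level. Traf1 lies between 85.8 and 96.3 RPKM and Traf5 between 4.06 and 5.11 RPKM, and in Xiap, Traf3 and Map3k14 OX40-knockout 1 sits away from the other 3 libraries.

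The comparison of OX40-knockout with wild-type asked whether loss of the receptor went with other transcript levels of its adaptors. None of the 9 genes was called in limma's test at an adjusted p under 0.05, where 0% of all genes tested were called. At an unadjusted p under 0.05 limma also gave 0 of the 9, against 1.39% of all genes tested. 5 of the 9 were higher and 4 lower on average in the knockout, with a median log2 change of 0.01 against -0.03 over all genes tested. With median-of-ratios scaling, quantile normalization or the GC correction 6 of the 9 were higher, and without OX40-knockout 1 only 2 were. Changes are on the scale of log2(RPKM + 1), which understates those of low genes such as Traf5. The groups did not overlap for 2 of the 9 genes, against 26.4% of all genes tested. Traf2 was the 1 gene with both knockout libraries higher, against 8.66% of all genes tested, and Xiap the 1 with both lower, against 17.8%. The 95% limma intervals of the single genes reached from -0.76 (Xiap) to 0.66 (Traf3), that is from 0.589-fold to 1.58-fold in RPKM + 1, and larger changes in either direction lay outside every one of them.

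**Figure D2:**
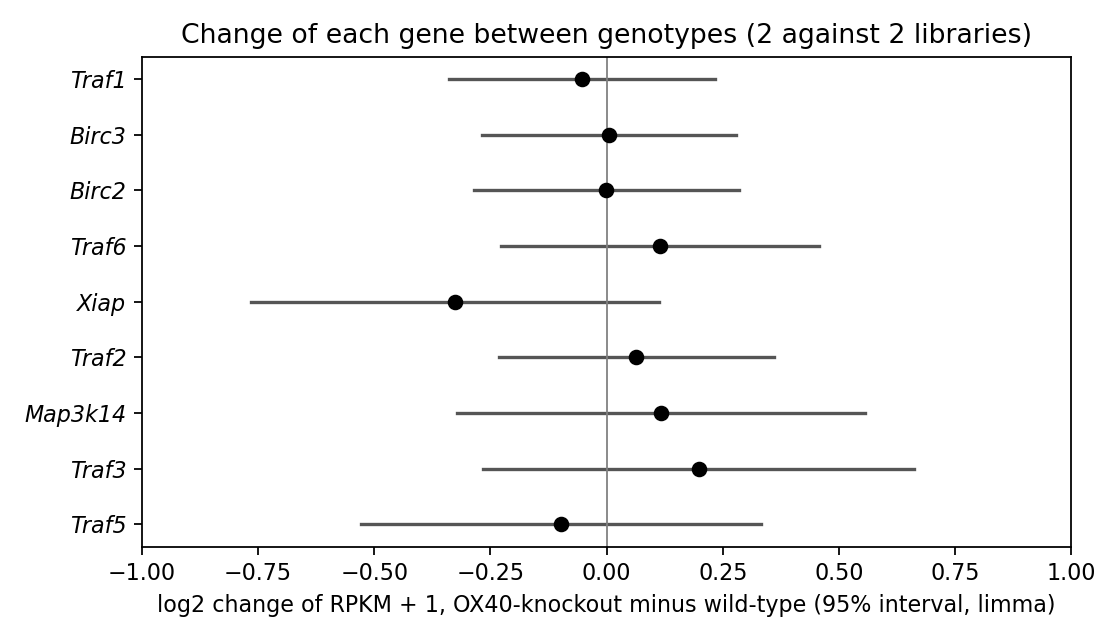
Log2 change of RPKM + 1 between genotypes (horizontal axis, knockout minus wild-type) with its 95% limma interval for each of the 9 genes, from 2 against 2 libraries. Every interval spans 0, and they are narrowest for Birc3 (-0.27 to 0.28) and widest for Traf3 (-0.27 to 0.66).

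Traf1 encodes an adaptor without the RING finger of its relatives, which joins TRAF2 in mixed trimers and is itself induced by NF-kB. It was at 92.8 and 95.9 (wild-type) and 96.3 and 85.8 RPKM (knockout). The knockout libraries held both the highest and the lowest value, so the groups overlapped. The log2 change was -0.05 (SE 0.11, limma adjusted p = 0.975).

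Traf2 encodes the adaptor that links OX40 and other TNF receptors to the cIAP ligases. It was at 14.3 and 14.1 (wild-type) and 15.0 and 14.8 RPKM (knockout). Both knockout libraries lay above both wild-type libraries, but the highest was only 1.06 times the lowest, the narrowest range of the 9. The exact 95% Poisson intervals overlapped between all 4 libraries, from 13.3 to 15.0 RPKM in wild-type 2 and from 14.1 to 15.9 RPKM in OX40-knockout 1. The log2 change was 0.06 (SE 0.11, limma adjusted p = 0.975). The ratio of Traf1 to Traf2 transcripts, which does not depend on library scaling, was 6.49 and 6.80 in the wild-type and 6.42 and 5.81 in the knockout libraries. It was lower in both knockout libraries, with means of 6.65 ± 0.220 and 6.11 ± 0.426 (n = 2 each). With 2 libraries per group the smallest two-sided p of an exact permutation test is 0.333, so none was run on ratios.

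Traf3 encodes the adaptor that keeps NIK in the complex that degrades it. It was at 10.9 and 11.9 (wild-type) and 15.3 and 11.4 RPKM (knockout). OX40-knockout 1 was the highest, with a Poisson interval of 14.6 to 16.1 RPKM that lay above those of the other 3, and OX40-knockout 2 fell between the wild-type libraries. The log2 change was 0.20 (SE 0.18, limma adjusted p = 0.975), and without OX40-knockout 1 it was -0.0023.

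Traf5, a close relative of Traf2 that also binds OX40, was at 4.28 and 5.11 (wild-type) and 4.56 and 4.06 RPKM (knockout). The groups overlapped, and the wild-type libraries differed from each other by more than the group means did. It also rested on the fewest reads, 195 and 245 (wild-type) and 199 and 180 (knockout). The Poisson intervals ran from 4.49 to 5.80 RPKM in wild-type 2 and from 3.49 to 4.70 RPKM in OX40-knockout 2, and so overlapped. The log2 change was -0.10 (SE 0.17, limma adjusted p = 0.975).

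Traf6 encodes a ubiquitin ligase that builds K63-linked chains to activate the kinase TAK1, chiefly under IL-1 and Toll-like receptors. It was at 32.2 and 28.8 (wild-type) and 35.6 and 30.7 RPKM (knockout). Replicate 1 was the higher library in each genotype, and within each replicate number the knockout was the higher. The groups overlapped, with a log2 change of 0.11 (SE 0.13, limma adjusted p = 0.975). It was 0.012 without OX40-knockout 1, 0.037 without wild-type 2, 0.19 without wild-type 1 and 0.22 without OX40-knockout 2. Between replicate 2 and replicate 1, with genotype in the model, the log2 difference was -0.18 (limma adjusted p = 0.811). That contrast called 0 of the 9 genes, against 0.834% of all genes tested (97 genes), and 0 of the 9 had an unadjusted limma p under 0.05, against 8.58%.

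Birc2 and Birc3 are neighbouring genes that encode cIAP1 and cIAP2, ligases that ubiquitinate RIPK1 and, through the TRAF2 and TRAF3 complex, NIK. Birc2 was at 37.2 and 40.1 (wild-type) and 39.9 and 37.3 RPKM (knockout). Birc3 was at 65.2 and 67.1 (wild-type) and 69.3 and 63.6 RPKM (knockout). In both genes the groups overlapped, and the group means of Birc2 were 38.6 ± 2.03 and 38.6 ± 1.89 RPKM (n = 2 each). The log2 changes were -0.00042 for Birc2 (SE 0.11) and 0.01 for Birc3 (SE 0.10), with limma adjusted p of 1.00 and 0.995. Birc3 to Birc2 was 1.75 and 1.68 in the wild-type and 1.74 and 1.71 in the knockout libraries, so that ratio also overlapped. The transcripts resemble each other in part. Of the 50-base stretches of the longest Birc3 transcript, 10.3% also occurred in transcripts of other genes, most often in the gene model Gm7019, and for Birc2 it was 2.07%, mostly in Birc3. No source used here states how such reads were counted, so both levels are uncertain, by an amount that was not tested.

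Xiap encodes the IAP that binds and blocks caspases directly, and in the fit over all 4 libraries without correction it differed most between the group means. With the GC correction Traf6 (0.19) differed slightly more than Xiap (-0.18). Without OX40-knockout 1, Traf5 (-0.17) and Traf1 (-0.14) differed more than Xiap (-0.12). Xiap was at 30.5 and 31.5 (wild-type) and 21.2 and 28.5 RPKM (knockout). Both knockout libraries were below both wild-type libraries, and the low value of OX40-knockout 1 set most of the difference. Poisson intervals were 20.2 to 22.2 RPKM in OX40-knockout 1 and 27.4 to 29.6 RPKM in OX40-knockout 2, against 29.4 to 31.7 RPKM in wild-type 1. The group means were 31.0 ± 0.674 and 24.8 ± 5.15 RPKM (n = 2 each). The log2 change was -0.33 (SE 0.17, interval -0.76 to 0.11), and limma did not call it (adjusted p = 0.975). Of the genes tested, 17.8% likewise had both knockout values under both wild-type values. The range of 1.49 between its highest and lowest library was the widest of the 9.

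Map3k14, encoding NIK, the kinase at the head of the alternative NF-kB pathway, was at 13.2 and 13.7 (wild-type) and 16.9 and 12.8 RPKM (knockout). The knockout libraries were the highest and the lowest of the 4. The log2 change was 0.12 (SE 0.17, limma adjusted p = 0.975), and without OX40-knockout 1 it turned to -0.072. Without OX40-knockout 2, Xiap, Traf3 and Map3k14 had an unadjusted limma p under 0.05, that is 3 of the 9 genes against 33% of all genes tested. The ratio of Traf3 to Map3k14, the holding adaptor to the kinase it holds, was 0.828 and 0.865 in the wild-type and 0.909 and 0.892 in the knockout libraries. It was higher in both knockout libraries, with means of 0.847 ± 0.0261 and 0.900 ± 0.0119 (n = 2 each). Both transcripts were highest in OX40-knockout 1 before the GC correction, so the uncorrected ratio differed less between the knockout libraries than either gene did. GC-corrected log2 values of Traf3 were 3.605 and 3.681 (wild-type) and 3.974 and 3.667 (knockout). Those of Map3k14 were 3.932 and 3.914 against 3.913 and 3.902. On that scale Traf3 relative to Map3k14 was not higher in OX40-knockout 2 than in wild-type 2. Traf3 to Traf2 was 0.765 and 0.844 in the wild-type and 1.02 and 0.771 in the knockout libraries, which overlapped. Birc2 to Xiap was 1.22 and 1.27 in the wild-type and 1.89 and 1.31 in the knockout libraries, higher in both. The groups did not overlap for 3 of the 5 ratios given, against 18 of all 36 ratios between 2 of the 9 genes. All these ratios were taken without the GC correction.

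Over the 9 genes 1 library differed most often. OX40-knockout 1 was the highest of the 4 for 6 of them and the lowest for Xiap, and it lay between the others for Traf5 and Birc2. It was thus outside the other libraries for 7 of the 9 genes, against 79.5% of all genes tested. OX40-knockout 2 lay within the wild-type range for 3 genes and below all other libraries for 4. The median absolute log2 difference over the 9 was 0.05 between the wild-type libraries and 0.16 between the knockout libraries, against 0.10 and 0.25 over all genes tested. Between wild-type 2 and OX40-knockout 2 it was 0.10, the same to 2 decimals as over all genes tested, and between wild-type 1 and OX40-knockout 1 it was 0.10 against 0.22. The median ratio of the highest to the lowest library was 1.24 for the 9 and 1.30 for all genes tested.

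The departure of OX40-knockout 1 followed the GC content of transcripts over all genes tested. Its median log2 difference from the mean of the other 3 libraries went from -0.28 in the tenth of genes lowest in GC to 0.33 in the tenth highest. Xiap, with 36.8% GC in its longest transcript, the lowest of the 9, differed by -0.49, and Map3k14, with 58.7%, the highest, by 0.33. With the median of each GC class removed, Map3k14 differed by -0.0028 and Xiap by -0.21. The class of Xiap spanned 18.1% to 41.2% GC with a median of 39.4%, above Xiap itself, so the correction is coarse for that gene. Traf3, at 52.9% GC, differed by 0.40 before and 0.32 after, and Traf6, at 45.7%, by 0.21 and 0.32. The difference also became larger for Traf5 (0.02 to 0.31), Birc2 (0.06 to 0.27) and Birc3 (0.09 to 0.19), while Traf2 was at 0.06 before and 0.05 after, and Traf1 went from 0.07 to -0.05. In the GC-corrected fit the log2 change between genotypes was -0.18 for Xiap and -0.02 for Map3k14, and no gene of the 9 passed. In that fit Traf1 and Map3k14 too were lower in both knockout libraries, by small steps, so that the groups did not overlap for 4 of the 9, against 26.2% of all genes in that fit. The NK marker sum was lowest and Cd4 highest in the same library, and their part in these differences was not tested.

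**Figure D3:**
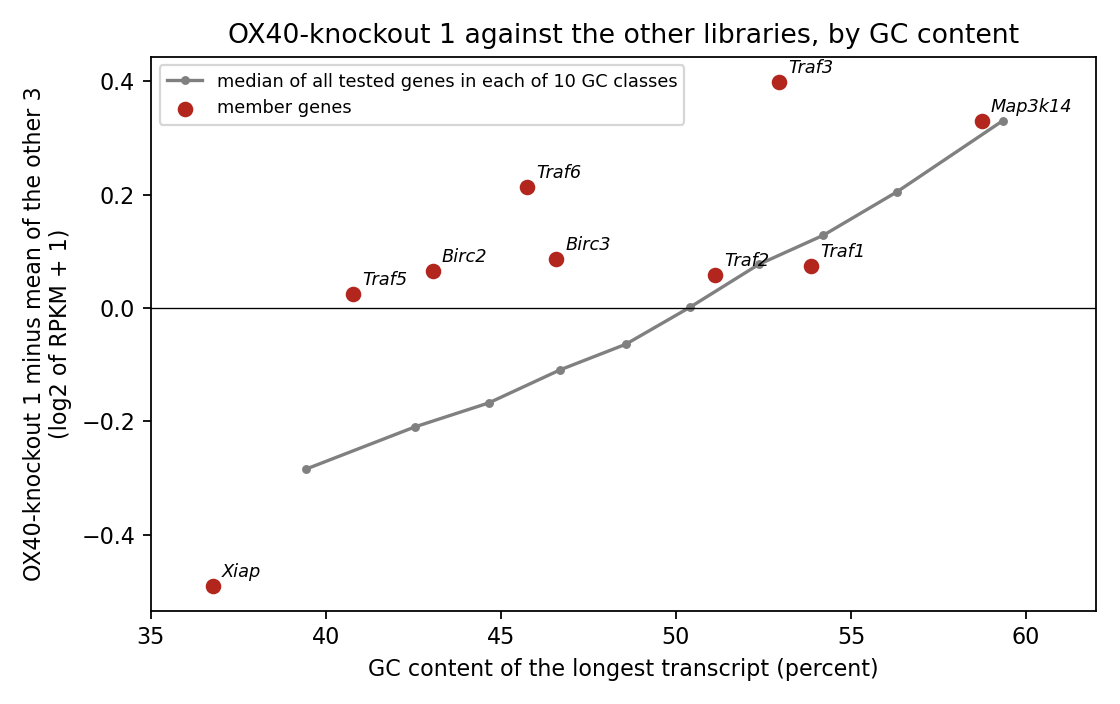
Distance of OX40-knockout 1 from the average of the other 3 libraries in log2 of RPKM + 1 (vertical axis) against GC content of the longest transcript in percent (horizontal axis), for the 9 genes and as the median of all tested genes in each of 10 GC classes. The medians climb from -0.28 to 0.33, Map3k14 sits on that line, and Traf3 at 0.40 lies above it. Xiap at -0.49 lies below the lowest class median and at a lower GC content than the line reaches.

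By the profile over the 4 libraries, the genes most like Xiap among 8568 with a mean of at least 5 RPKM were Zbtb20, Wdr31 and Slc35a5, at Euclidean distances of 0.02, 0.02 and 0.03 in centred log2(RPKM + 1). Zbtb20 was at 10.8, 11.1, 7.28 and 9.86 RPKM in wild-type 1 and 2 and OX40-knockout 1 and 2. With only 4 libraries a close match is common, and the 100 nearest genes all lay within a distance of 0.10.

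Genes of the wider pathway were read from 7 further lists of 69 genes, of which 65 were tested. None was called by limma, and 1, Tnfrsf8, had an unadjusted limma p under 0.05, against 1.39% of all genes tested. Of the 65, 39 were higher and 26 lower on average, with a median log2 change of 0.03, and the groups did not overlap for 9 in the higher and 14 in the lower direction (35.4%, against 26.4% of all genes tested). Without OX40-knockout 1, 21 of the 65 were higher and the median of each of the 7 lists was below 0.

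Among receptors that bind TRAFs, Tnfrsf9, which encodes 4-1BB, was by far the most abundant, at 1259 and 1188 (wild-type) and 1100 and 1333 RPKM (knockout). Those values overlapped. Tnfrsf8, which encodes CD30, was at 41.2 and 52.0 (wild-type) and 67.7 and 67.2 RPKM (knockout). Both knockout libraries were higher, as for 8.66% of all genes tested. The log2 change of Tnfrsf8 was 0.53 (SE 0.14), and it did not pass after adjustment (limma adjusted p = 0.975). Tnfrsf1b, encoding TNF receptor 2, lay between 63.1 and 71.6 RPKM. Of the 12 receptors, 9 were tested, 5 higher and 4 lower.

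Other TRAF-type and TRAF-binding genes had 8 of 12 tested members higher, with a median of 0.02. Traf4, a TRAF with roles mainly outside the immune system, was at 10.1 and 11.2 (wild-type) and 19.2 and 11.8 RPKM (knockout), the knockout values being the higher. Trafd1 was at 68.1 and 70.0 against 95.3 and 66.2 RPKM, with groups that overlapped. The most abundant were Traf3ip3, between 111 and 141 RPKM, and Traf7, between 85.0 and 111 RPKM.

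The ubiquitin chain assembly list, with the linear ubiquitin ligase and the E2 enzymes used by TRAFs, had 5 of 7 higher and a median of 0.07. Rnf31, the catalytic subunit of the linear ubiquitin ligase, was at 28.2 and 27.8 (wild-type) and 41.5 and 26.3 RPKM (knockout). Its partner Rbck1 was at 135 and 139 against 171 and 127 RPKM. Both were highest in OX40-knockout 1 and lowest in OX40-knockout 2, as Map3k14, Traf1 and Birc3 were. Ube2d3 lay between 196 and 213 RPKM and Ube2d2a between 64.7 and 68.2 RPKM.

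Deubiquitinases and inhibitors had 5 of 8 higher and a median of 0.08. Without wild-type 1 the median of this list was -0.02, with 3 of 8 higher. Tnfaip3, which encodes the NF-kB-induced inhibitor A20, was at 63.6 and 38.4 (wild-type) and 108 and 50.7 RPKM (knockout). Within each genotype replicate 1 was the higher, and the groups overlapped. Spata2, which links the deubiquitinase CYLD to receptor complexes, was at 26.0 and 25.9 against 41.3 and 26.3 RPKM. Usp18, an interferon-induced protease, was at 10.1 and 10.4 against 8.77 and 5.58 RPKM. Otulin, which removes linear chains, lay between 50.7 and 62.6 RPKM.

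Genes of the IKK, TAK1 and JNK steps, kinases with their partners Ikbkg, Tab1, Tab2 and Tab3, were lower for 10 of 14, with a median of -0.08. For 5 of the 14 both knockout values lay under both wild-type values, against 17.8% of all genes tested. Tab2, an adaptor of TAK1, was at 128 and 129 (wild-type) and 115 and 117 RPKM (knockout), with a log2 change of -0.14 (SE 0.10, limma adjusted p = 0.975). Map3k7, which encodes TAK1 itself, was at 34.3 and 34.9 against 30.5 and 31.8 RPKM. In both genes the knockout libraries lay close together below the wild-type libraries. Map2k4 was at 59.7 and 56.7 against 51.8 and 56.8 RPKM. The median of this list without OX40-knockout 1 was -0.07, with 2 of 14 higher, and with the GC correction it was -0.02, with 3 of 14 higher.

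Other IAP genes and their antagonists were 3 higher and 3 lower, with a median of 0.03. The 3 lower were Birc6, Birc5 and Diablo, each lower in both knockout libraries, against 17.8% of all genes tested. Birc6, a giant IAP with its own E2 domain, was at 84.1 and 83.8 against 77.6 and 78.6 RPKM. Birc5, the mitotic protein survivin, was at 36.1 and 38.7 against 35.1 and 35.2 RPKM. Diablo, the mitochondrial antagonist of IAPs, was at 14.3 and 16.1 against 13.0 and 14.0 RPKM.

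NF-kB subunits and feedback genes were all 9 higher on average, with a median of 0.20 and none called. Without OX40-knockout 1 the median was -0.02 and 4 of 9 were higher. Nfkb2, the subunit precursor that NIK signalling processes, was at 31.7 and 30.8 (wild-type) and 43.2 and 32.3 RPKM (knockout), and Nfkb1 lay between 153 and 172 RPKM. Bcl3, a nuclear IkB-type regulator, was at 61.6 and 65.5 against 156 and 75.7 RPKM. Nfkb1, Nfkb2 and Bcl3 were highest in OX40-knockout 1, as 6 of the 9 members were, Map3k14 and Traf3 among them. That library lay outside the others for 79.5% of all genes tested. With the GC correction its difference from the mean of the others was -0.0028 for Map3k14 and 0.32 for Traf3. A link between these genes was not tested.

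**Figure D4:**
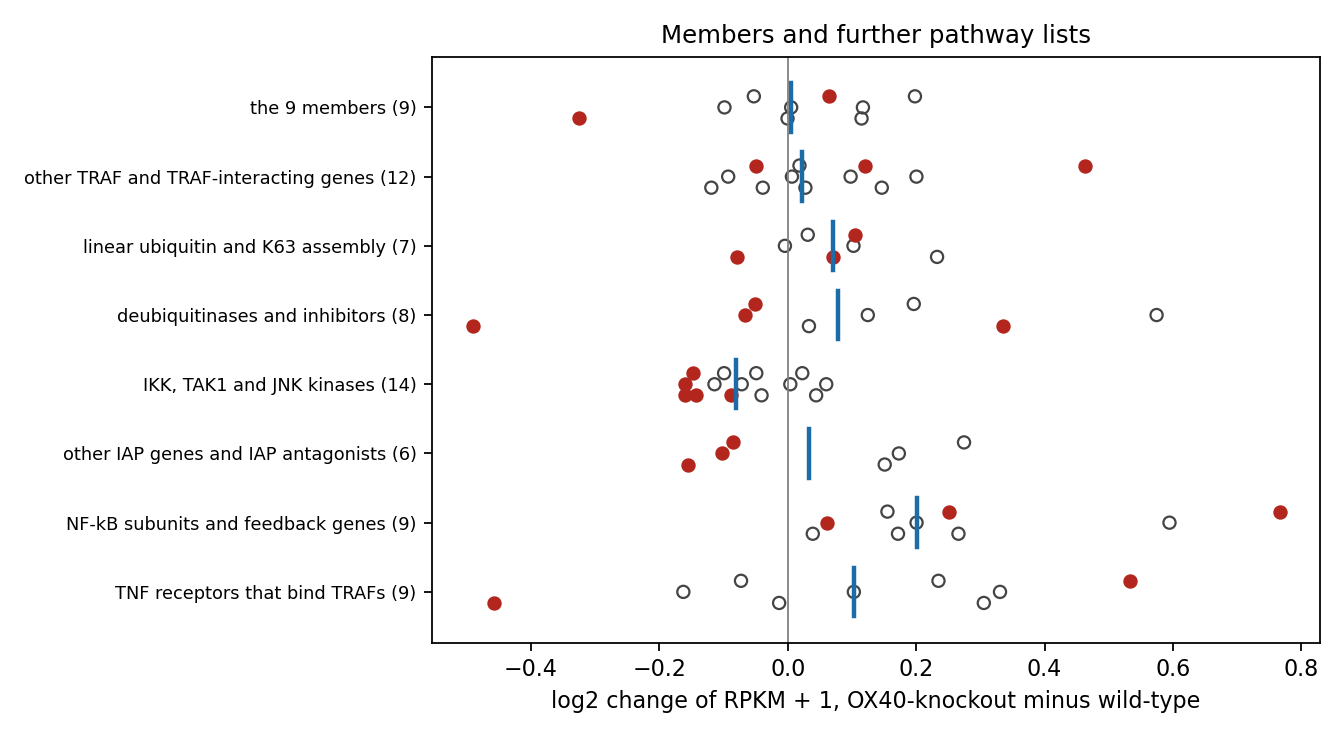
Log2 change of RPKM + 1 between genotypes (horizontal axis) for the 9 members and the tested genes of 7 further lists, 1 point per gene, with the number of genes in brackets. Filled red points have groups that do not overlap, open points have groups that do, and the blue bar is the median. The NF-kB list has a median of 0.20 and the IKK, TAK1 and JNK list of -0.08, and no point passed the adjusted limma threshold.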

How the data were processed

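Total RNA of 4 libraries (2 per group) was sequenced. The authors deposited 1 table of RPKM values with 35275 Ensembl gene IDs, and per the submitters' processing notes Bowtie 0.12.2 and genome build mm8 were used. The sources used here give no annotation, counting tool, strand setting or treatment of multi-mapping reads. The header names no unit. It was settled from single-transcript genes, where the commonest value was that of 1 read at the length in GENCODE vM21, which gave each library's total. With these totals 82.6% to 83.2% of the values of such genes were whole reads within 0.02 read. Reads of single genes are the smallest whole numbers that fit the ratios between libraries (tolerance 0.002 read), so true reads may be a multiple and the exact 95% Poisson intervals too wide. They cover counting error only.

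GENCODE vM21 named 34490 IDs and gave lengths and GC content. It is of GRCm38, so no coordinates are given for the measured values. log2(RPKM + 1) of genes averaging 1 RPKM or more was tested with limma 3.58.1 in R 4.3.3 (mean-variance trend, 4 libraries, no block), two-sided, Benjamini-Hochberg over all 11625 genes, threshold 0.05. The code was tested on simulated data. The alternatives were a pseudocount of 0.1, no filter, median-of-ratios and quantile scaling, a replicate block, a GC correction in 10 classes and leaving out each library. Members and lists were chosen with earlier results of these data known. All 9 members are named. From each further list the 2 of highest mean and the 2 of lowest p are named, and Tnfrsf4. For likeness, the 3 nearest named genes averaging 5 RPKM or more are given. Of 115 list genes 114 were matched, Trdc being the exception. Other software was scipy 1.17.1, matplotlib 3.10.9, pandas 2.3.3 and numpy 2.4.6 under Python 3.11.15.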

Additional observations from a re-analysis of the deposited data

How the results depend on the processing

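None of the 9 genes was called by limma under any of the 11 alternatives, and of 99 single-gene changes 83 kept their direction and 16 changed sign. For Birc2 the change was 0.022 with median-of-ratios scaling, 0.0070 with quantile normalization and 0.11 with the GC correction, also when the replicate block was added. With the GC correction, with or without the block, Map3k14 was at -0.015 and Traf5 at 0.044. With 1 library left out in turn, Birc2 ranged from -0.053 to 0.052, Birc3 from -0.057 to 0.067, Map3k14 from -0.072 to 0.31, Traf1 from -0.14 to 0.029, Traf3 from -0.0023 to 0.40, Traf5 from -0.20 to 0.0075, Traf6 from 0.012 to 0.22 and Traf2 from 0.053 to 0.075. Xiap kept its direction throughout, from -0.53 to -0.12 when libraries were left out. The lone library of a group was assumed to vary like the other group.

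The median change of the 9 was 0.079 with the GC correction, with or without the block, and ranged from -0.057 to 0.067 when a library was left out. The groups did not overlap for 4 of the 9 genes with the GC correction (26.2% of all genes) and for 4 to 7 when a library was left out (47.2% to 85.8% of all genes). Genes of the 9 with an unadjusted limma p under 0.05 numbered 0 to 3 when a library was left out. The 3 were Xiap, Traf3 and Map3k14 without OX40-knockout 2, where 33% of all genes tested had such a p. Over all genes limma called 1 with quantile normalization, 5 with the replicate block, 1 with the block and the GC correction, and 0 to 1 when a library was left out, none of them among the 9.

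The labels do not say that replicate numbers pair libraries. Deviations of the replicate 1 libraries from their group means correlated at 0.47 over the 11625 genes, as a description with 2 pairs. The replicate contrast called 97 genes, 0 with no filter, 496 with median-of-ratios scaling, 458 with quantile normalization and 22 with the GC correction. These alternatives, and those of the order of levels, were chosen after seeing the data. The order of the 9 by level held with median-of-ratios scaling, and 7 to 9 genes kept their place when a library was left out. The cause of these shifts was not tested. Reads limit Traf5 most, and 2 libraries per group limit every comparison.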
